A study of Zea mays with 9 samples.

Results

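The anthocyanin pathway of the maize aleurone was followed through 10 genes, chosen by their identifiers with the symbols c1, r1, c2, whp1, chi1, fht1, pr1, a1, a2 and bz1. They are 10 of the 46430 gene identifiers in each count file. A total of 9 had enough counts to be tested, and whp1 had not. The tissue was endosperm of 19 DAP (days after pollination), from maize grown in the field and self-pollinated. WT plants were the inbred line B73, and both mutants, thk1-iso15 and thk1-iso17, were homozygous for their allele of thk1 in the same B73 background. Each genotype had 3 libraries of poly(A) RNA. How many kernels or plants went into 1 replicate is not in the labels, so each p-value measures only the spread between these samples. The gene thk1 (thick aleurone1) encodes a NOT1 subunit of the CCR4-NOT complex, and its mutants form a thicker aleurone, which is the outermost tissue of the endosperm. The design asks what the loss of thk1 changes in the endosperm transcriptome. The level of thk1 itself was not analysed here. Any difference between WT and mutant lines other than the thk1 allele cannot be told apart from its effect.

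Anthocyanins are purple and red flavonoid pigments, which maize kernels deposit in the aleurone. Their genes are switched on there by a pair of transcription factors that act together, the MYB protein C1 and the bHLH protein R1. The enzymes form a chain from chalcone synthase to the glucosyltransferase that makes the stable pigment. B73 kernels are yellow and not purple, and pigment was not measured in these samples. In bulk endosperm, more cells of a type and more RNA per cell cannot be told apart.

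Gene counts per library ranged from 21871601 to 76651742. Levels are given in CPM, the count of a gene relative to the TMM-scaled size of its library, and 1 count was worth between 0.0111 and 0.0482 CPM. Levels were compared between libraries and not between genes, since transcript lengths were not used here. Gene positions on the build of the counts, B73 RefGen_v4, were not used either. Markers of aleurone and of other kernel tissues were not analysed here, as no table used pairs their names with these identifiers. Whether the share of aleurone RNA differed between the libraries was therefore not tested.

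Both regulators were detected in all 9 libraries, and r1 passed the test in each allele while c1 passed in neither. The MYB regulator c1 (Zm00001d044975) had 39 to 228 counts per library. In WT replicates 1, 2 and 3 it stood at 1.88, 1.45 and 1.55 CPM. The thk1-iso15 replicates had 2.25, 1.70 and 1.57 CPM, and the thk1-iso17 replicates 2.53, 2.63 and 1.44. The genotypes overlapped, and the lowest of all 9 libraries was a mutant one. Log2 fold changes of 0.18 (SE 0.32) for thk1-iso15 and 0.44 (SE 0.32) for thk1-iso17 were fitted, and neither passed the edgeR quasi-likelihood test with Benjamini-Hochberg adjustment over all genes (adjusted p = 0.742 and 0.373).

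The bHLH regulator r1 (Zm00001d026147) rose in both alleles. Its WT libraries held 1.69, 3.07 and 0.646 CPM. The thk1-iso15 libraries held 19.3, 2.90 and 8.60 CPM, and the thk1-iso17 libraries 5.64, 6.23 and 21.1 CPM. All 3 thk1-iso17 libraries lay above all WT libraries, whereas thk1-iso15 replicate 2 lay between WT replicates 1 and 2. From a mean of 1.80 ± 1.22 CPM in WT (SD, n = 3), the level of r1 increased by 2.49 on the log2 scale (SE 0.76) with thk1-iso15 and by 2.59 (SE 0.76) with thk1-iso17. The edgeR adjusted p-values were 0.0493 and 0.0445. The thk1-iso15 fold was 1.67 on the log2 scale without its replicate 1 and 3.22 without WT replicate 2. The thk1-iso17 fold was 1.69 without its replicate 3 and 3.32 without WT replicate 2. In none of these 4 cases did r1 pass, with edgeR adjusted p of 0.178, 0.0594, 0.122 and 0.0569 in the same order. It passed in 2 of 9 fits that left out 1 library, in each allele. The call in thk1-iso15 was also lost with RLE factors (adjusted p = 0.0503) and upper quartile factors (0.0502), and voom gave 0.158 and 0.0930 in the alleles. With the replicate number added as a block, edgeR gave an adjusted p of 0.113 and 0.0918. Across all 9 libraries r1 spanned a 32.6-fold range, the widest of the 9 members tested. The R1 family has close copies in maize, so reads shared between copies leave this count uncertain.

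**Figure D1:**
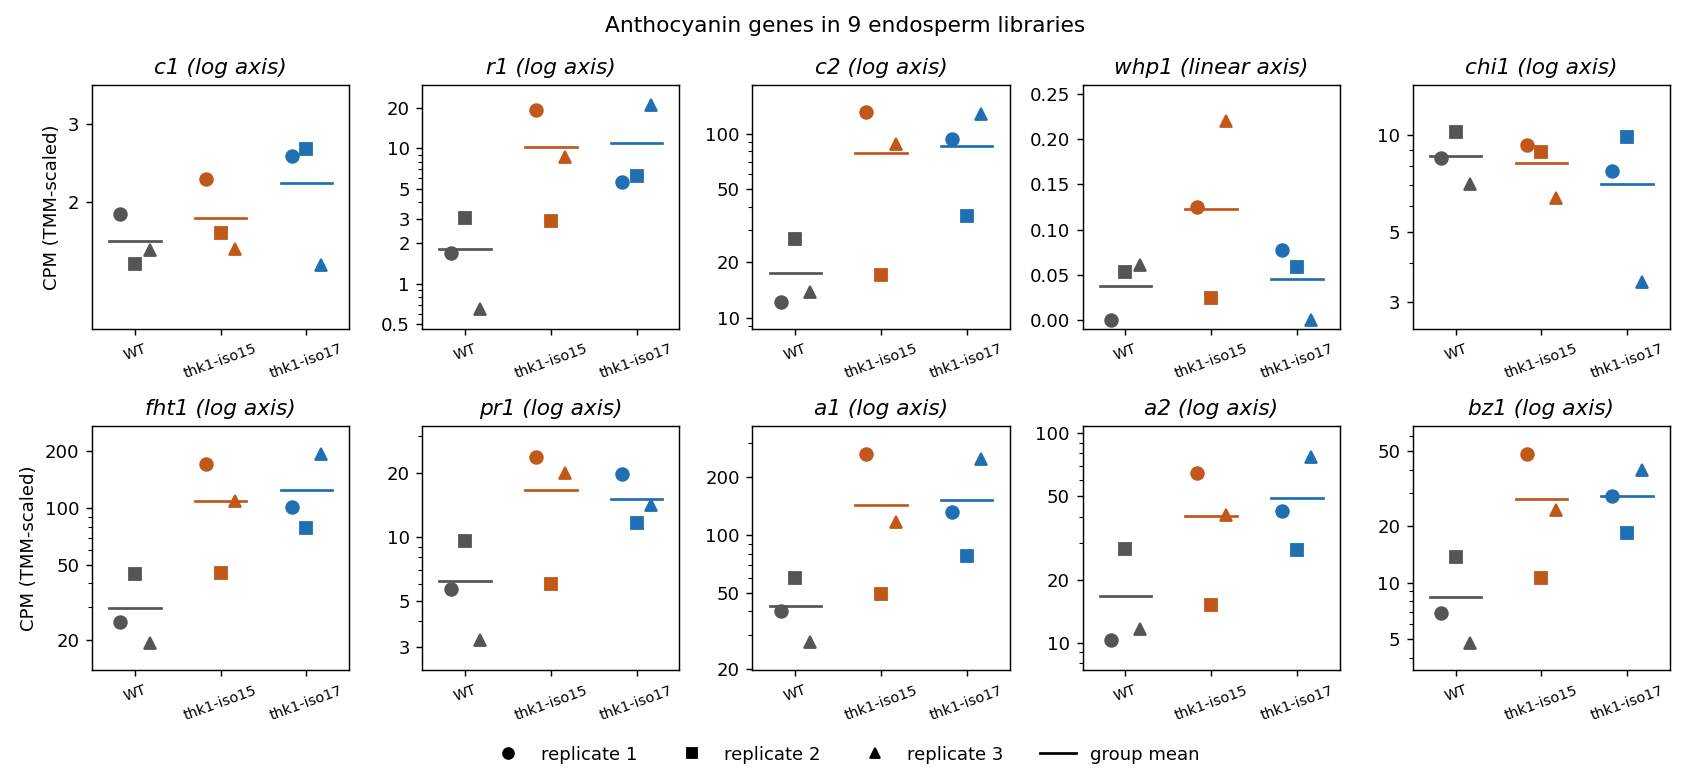
Level of each gene in each library, in TMM-scaled CPM, by genotype. Points are single libraries, with the shape giving the replicate, and short lines are means of 3. The axis is logarithmic except for whp1. In r1, c2, fht1, pr1, a1, a2 and bz1 the square of thk1-iso15 (replicate 2) is the lowest mutant library and the square of WT the highest WT library.

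Among the early enzymes, c2 and fht1 rose in both alleles. The gene c2 (Zm00001d052673) encodes chalcone synthase, the first committed enzyme of flavonoid synthesis. WT libraries had 12.1, 26.7 and 13.8 CPM, thk1-iso15 libraries 131, 17.2 and 88.2, and thk1-iso17 libraries 93.9, 35.7 and 127. The mutant libraries lay above WT except thk1-iso15 replicate 2, which fell within the WT range. The thk1-iso15 level was 2.16 higher on the log2 scale (SE 0.65) and the thk1-iso17 level 2.28 (SE 0.65), with edgeR adjusted p-values of 0.0460 and 0.0400. These calls held in 3 of 9 fits that left out 1 library, in each allele, where the adjusted p ranged up to 0.154 and 0.136. They were also lost by voom (adjusted p = 0.150 and 0.0743) and with a replicate block in edgeR (0.124 and 0.0872).

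A second chalcone synthase gene, whp1 (Zm00001d007403), was almost silent. WT replicates had 0, 3 and 3 counts, thk1-iso15 replicates 3, 1 and 10, and thk1-iso17 replicates 7, 3 and 0. The count of 0 allows up to 0.145 CPM in WT replicate 1 and 0.0515 CPM in thk1-iso17 replicate 3. Summed over its libraries, whp1 gave 0.0472 CPM for WT (95% exact Poisson interval 0.0173 to 0.103), 0.126 for thk1-iso15 (0.0689 to 0.211) and 0.0501 for thk1-iso17 (0.0240 to 0.0921). These intervals cover counting error only. The ratio to WT was 2.67 for thk1-iso15 (95% exact interval 0.963 to 8.47) and 1.06 for thk1-iso17 (0.349 to 3.55), so no difference was detectable at this depth. Of the counts of both chalcone synthase genes, whp1 took 0.244% of the WT total, 0.178% for thk1-iso15 and 0.0565% for thk1-iso17. Since c2 and whp1 are near-identical copies, reads that match both may be in neither count. With their counts summed as 1 gene, the number of members called was the same in each comparison.

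The chalcone isomerase gene chi1 (Zm00001d034635), whose enzyme closes the flavanone ring, passed the test in neither allele. Levels of 8.53, 10.3 and 7.06 CPM were found in the WT replicates, 9.36, 8.89 and 6.38 in those of thk1-iso15, and 7.72, 9.92 and 3.47 in those of thk1-iso17. No mutant library exceeded the highest WT library, and thk1-iso17 replicate 3 was the lowest of all 9. Fitted log2 fold changes were -0.075 (SE 0.33) and -0.29 (SE 0.33) for thk1-iso15 and thk1-iso17, with edgeR adjusted p-values of 0.902 and 0.587.

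Next in the chain, fht1 (Zm00001d001960) encodes flavanone 3-hydroxylase, which makes dihydroflavonols. Its levels were 24.96, 45.0 and 19.4 CPM for the WT replicates, 172, 45.5 and 109 for thk1-iso15, and 101, 78.8 and 194 for thk1-iso17. It was the single member whose 6 mutant libraries all lay above the 3 WT libraries, though thk1-iso15 replicate 2 exceeded WT replicate 2 by little. Of all genes tested, 12.4% had every mutant library above every WT library. On the log2 scale fht1 rose by 1.87 (SE 0.49) with thk1-iso15 and by 2.06 (SE 0.49) with thk1-iso17, at edgeR adjusted p-values of 0.0277 and 0.0205. Leaving out 1 library ended the call in thk1-iso15 for WT replicate 1, WT replicate 3 and thk1-iso15 replicate 1 (adjusted p = 0.102, 0.102 and 0.0975), and in thk1-iso17 for WT replicates 1 and 3 (0.0837 and 0.0827). A replicate block in edgeR ended it in thk1-iso15 (adjusted p = 0.0616) but not in thk1-iso17 (0.0413).

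The gene pr1 (Zm00001d017077) encodes flavonoid 3′-hydroxylase, the branch enzyme that adds a hydroxyl group to the B ring and so shifts the pigment from red to purple. Replicates 1, 2 and 3 had 5.69, 9.61 and 3.27 CPM for WT, 23.9, 5.99 and 20.03 for thk1-iso15, and 19.8, 11.6 and 14.2 for thk1-iso17. All thk1-iso17 libraries lay above WT, and thk1-iso15 replicate 2 again lay within the WT range. The log2 fold changes of 1.42 (SE 0.49) and 1.29 (SE 0.48) did not pass in thk1-iso15 or thk1-iso17 (edgeR adjusted p = 0.0720 and 0.0959). Of 19 alternative fits, with a setting changed or 1 library left out, pr1 passed in 3 in thk1-iso15 and 4 in thk1-iso17. DESeq2 was among them (adjusted p = 0.0118 and 0.0261).

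The late enzymes had fold changes of similar size, and in the single alleles only bz1 in thk1-iso17 passed the threshold. The gene a1 (Zm00001d044122) encodes dihydroflavonol reductase, which makes leucoanthocyanidins. The 3 WT libraries contained 40.4, 59.9 and 27.6 CPM, those of thk1-iso15 262, 49.1 and 116, and those of thk1-iso17 132, 77.4 and 248. Once more thk1-iso15 replicate 2 fell within the WT range, and all thk1-iso17 libraries lay above it. Its log2 fold changes were 1.74 (SE 0.56) and 1.84 (SE 0.57), and its edgeR adjusted p was 0.0602 and 0.0522 in thk1-iso15 and thk1-iso17, above the threshold of 0.05 in each. Without thk1-iso15 replicate 1 the thk1-iso15 value was 0.95. Of the 19 alternative fits, a1 passed in 4 in thk1-iso15 and 6 in thk1-iso17.

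Anthocyanidin synthase, encoded by a2 (Zm00001d014914), converts leucoanthocyanidins into the coloured anthocyanidins. Its WT libraries contained 10.3, 27.9 and 11.6 CPM, its thk1-iso15 libraries 64.3, 15.1 and 40.8, and its thk1-iso17 libraries 42.7, 27.7 and 77.2. Here the genotypes overlapped in both alleles, because WT replicate 2 lay above thk1-iso17 replicate 2 as well. The log2 fold changes of 1.26 (SE 0.54) and 1.56 (SE 0.54) did not pass (edgeR adjusted p = 0.134 and 0.0769). They were 1.88 and 2.17 without WT replicate 2. Of the 19 alternative fits, a2 passed in 0 in thk1-iso15 and 2 in thk1-iso17.

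The gene bz1 (Zm00001d045055) encodes the glucosyltransferase that stabilises the anthocyanidins by adding glucose. Per library it reached 6.89, 13.7 and 4.78 CPM for WT, 48.6, 10.6 and 24.2 for thk1-iso15, and 28.9, 18.3 and 39.97 for thk1-iso17. All thk1-iso17 libraries lay above WT, and bz1 rose there by 1.77 on the log2 scale (SE 0.53, edgeR adjusted p = 0.0463). This call held in 4 of 9 fits that left out 1 library, where the adjusted p ranged up to 0.153. It was also lost by voom (adjusted p = 0.0517) and with a replicate block in edgeR (0.0788). In thk1-iso15 the log2 fold change was 1.70 (SE 0.53), with an edgeR adjusted p of 0.0507, and it was 1.04 without replicate 1 of that allele. There bz1 passed in 6 of the 19 alternative fits. A direct edgeR test did not show bz1 to differ between the alleles (log2 difference 0.069, SE 0.51, adjusted p = 0.991).

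**Figure D2:**
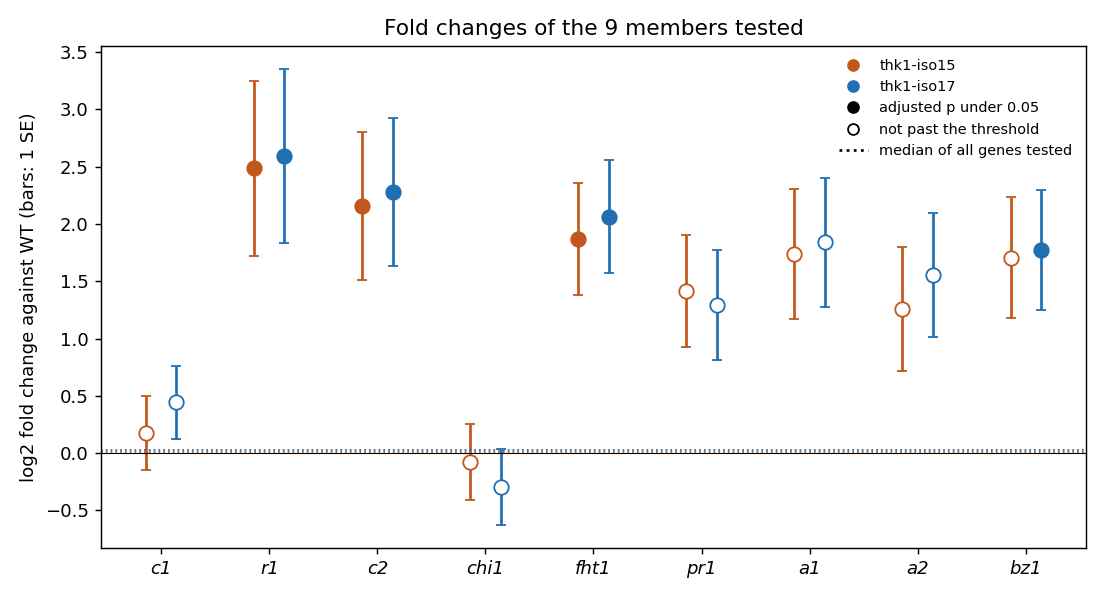
Log2 fold change against WT of the 9 members tested, with bars of 1 SE, for thk1-iso15 and thk1-iso17. Filled points have an edgeR adjusted p under 0.05, and dotted lines mark the median of all genes tested. The values of c1 and chi1 lie between -0.29 and 0.44, and those of the other 7 genes between 1.26 and 2.59.

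In thk1-iso15, 3 of the 9 members tested were higher than WT (r1, c2, fht1) and 0 lower by the edgeR test. The background was 8.66% of 23529 genes called higher. An unadjusted p under 0.05 was reached by 7 members, against 17.5% of all genes that did so and were higher. The median log2 fold change of the 9 members was 1.70, beside 0.012 for all genes tested. The groups did not overlap in 1 member, fht1, while 19.6% of all genes had every thk1-iso15 library above every WT library. The calls depended on single libraries. No member passed without WT replicate 1, WT replicate 3 or thk1-iso15 replicate 1. Of all genes tested, 816 of 24186, 1015 of 24150 and 1160 of 24055 were then called higher, in the same order. With all libraries, 2038 of 23529 were. A single member passed without thk1-iso15 replicate 3 or thk1-iso17 replicate 1, where 2251 of 24177 and 1603 of 23974 genes were called higher. Without thk1-iso15 replicate 2, the lowest mutant library, 6 passed, and 5 did so without thk1-iso17 replicate 3. In these fits 968 of 24097 and 2420 of 24140 genes were called higher. With the replicate number added to the fit as a block, 0 passed.

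In thk1-iso17, 4 members were higher (r1, c2, fht1, bz1) and 0 lower, with a background of 7.96% of genes called higher. Here too 7 members had an unadjusted p under 0.05, against 16.7% of all genes higher at that level. The median was 1.77 on the log2 scale, beside 0.025 for all genes tested. The groups did not overlap in 6 members (r1, c2, fht1, pr1, a1, bz1), and 18.9% of all genes lay likewise above WT. No member passed without WT replicate 1 or 3. Of all genes tested, 795 of 24186 and 901 of 24150 were then called higher, beside 1873 of 23529 with all libraries. A single member passed without thk1-iso17 replicate 1, thk1-iso17 replicate 3 or thk1-iso15 replicate 3, 2 passed without WT replicate 2, and 7 without thk1-iso15 replicate 2. Genes called higher were 747 of 23974, 2148 of 24140, 2014 of 24177, 978 of 24169 and 1612 of 24097, in the same order. With the replicate number added to the fit as a block, only fht1 passed. Both alleles were compared with the same 3 WT libraries, so their fold changes share the error of those libraries.

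With both alleles combined against WT, 6 members rose, namely r1, c2, fht1, pr1, a1 and bz1, and the background was 11.0% of genes called higher. Their log2 fold changes were 2.54 (SE 0.71) for r1, 2.22 (SE 0.60) for c2, 1.97 (SE 0.45) for fht1, 1.35 (SE 0.44) for pr1, 1.79 (SE 0.52) for a1 and 1.74 (SE 0.48) for bz1. The edgeR adjusted p was lowest for fht1 at 0.0125 and highest among these 6 for pr1 at 0.0498. The pr1 call held in only 2 of 9 fits that left out 1 library. It was also lost with RLE factors (edgeR adjusted p = 0.0516). The value of a2 was 1.41 (SE 0.49, edgeR adjusted p = 0.0631), and c1 and chi1 had 0.31 (SE 0.28, edgeR adjusted p = 0.455) and -0.18 (SE 0.29, edgeR adjusted p = 0.678). Of all genes tested, 97.6% had a smaller fold change than r1, 96.8% than c2, 95.9% than fht1, 95.2% than a1, 94.9% than bz1, 92.8% than a2 and 92.2% than pr1. For c1 the share was 68.6% and for chi1 34.4%. In the whole set 12.4% of genes had all 6 mutant libraries above WT, and fht1 was the only member tested that did. No member passed without WT replicate 1 or without WT replicate 3. Genes called higher were then 1261 of 24186 and 1312 of 24150, beside 2586 of 23529 with all libraries. Between 4 and 7 members passed when any other library was left out, with from 1466 of 24169 to 2988 of 24140 genes called higher. Without WT replicate 2 the value of r1 was 3.27 and that of a2 was 2.02, at which a2 passed (edgeR adjusted p = 0.0404). By voom 3 members passed, beside 2062 of 23529 genes called higher. With the replicate number added to the fit as a block, only fht1 passed (edgeR adjusted p = 0.0304).

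**Figure D3:**
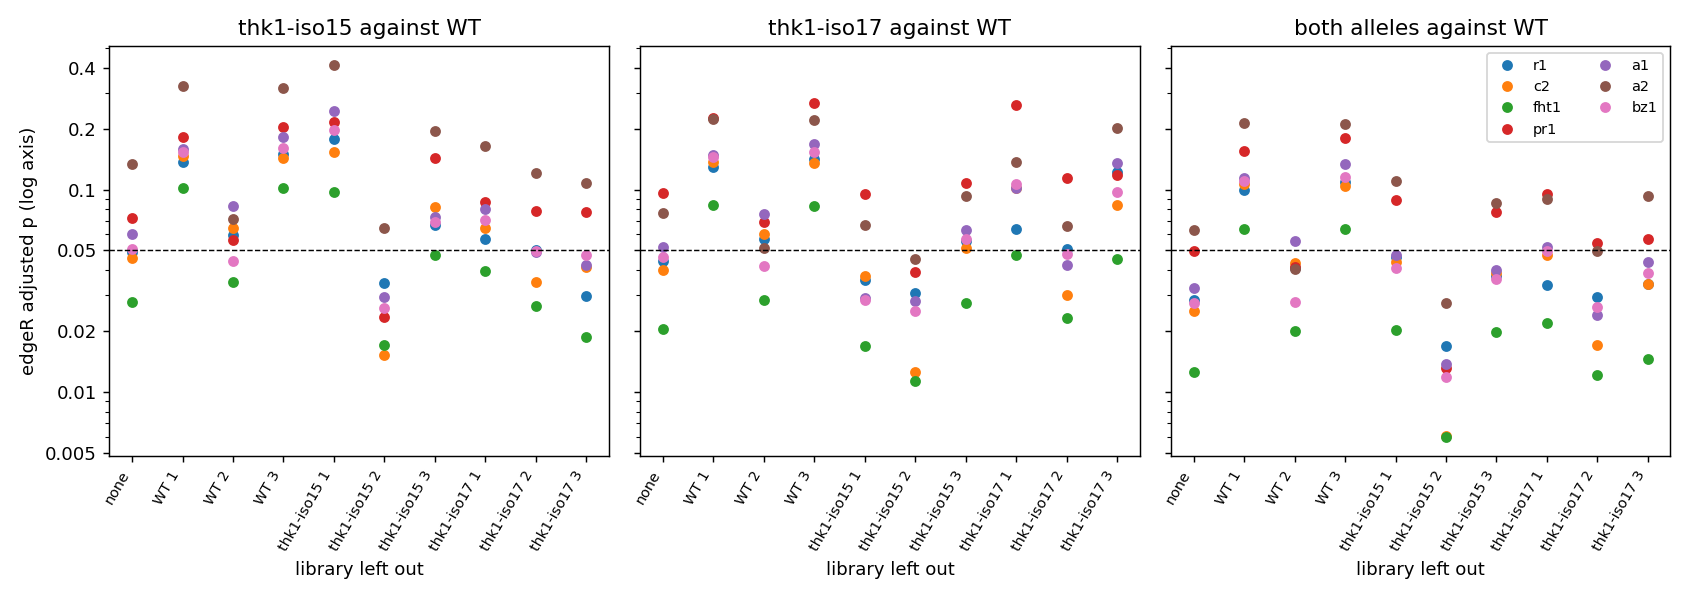
EdgeR adjusted p (log axis) of r1, c2, fht1, pr1, a1, a2 and bz1 in each comparison with WT, with all libraries (none) and with each library left out in turn. The dashed line is the threshold of 0.05. Every point lies above the line without WT replicate 1 or 3, and points are lowest, or close to lowest, without thk1-iso15 replicate 2.

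The alleles were not shown to differ in any member. The direct edgeR test of thk1-iso17 against thk1-iso15 called 0 of the 9 members, 0 had an unadjusted p under 0.05, and DESeq2 and voom also called 0. In this comparison 0.111% of all genes were called, and 6.88% had an unadjusted p under 0.05. The log2 differences lay between -0.22 for chi1 and 0.30 for a2, with an edgeR adjusted p of at least 0.915. The 95% interval of the ratio of thk1-iso17 to thk1-iso15 ran from 0.370 to 3.13 for r1, from 0.425 to 2.79 for c2, from 0.561 to 2.35 for fht1 and from 0.742 to 1.95 for c1. Differences of these sizes between the alleles therefore remain possible.

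Spread between replicates was wide in the members that changed. The biological coefficient of variation fitted by edgeR was 0.591 for r1, 0.516 for c2 and 0.460 for a1, beside a median of 0.234 over all genes tested. For c1 and chi1 it was 0.288 and 0.297. Within thk1-iso15 r1 differed 6.66-fold between libraries and c2 7.64-fold, whereas chi1 differed 1.47-fold and c1 1.43-fold. Within thk1-iso17 the range was narrower for r1 at 3.74-fold, c2 at 3.57-fold and pr1 at 1.71-fold (3.99-fold in thk1-iso15). It was wider there for chi1, at 2.86-fold, and for c1, at 1.82-fold.

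This spread was shared between genes. In each of r1, c2, fht1, pr1, a1, a2 and bz1, a group of 7 members formed after their values were seen, WT replicate 2 was the highest WT library and thk1-iso15 replicate 2 the lowest mutant library. In 6 of the 7 genes thk1-iso15 replicate 2 lay below WT replicate 2, with fht1 as the exception. The highest library of all was thk1-iso15 replicate 1 in 4 genes and thk1-iso17 replicate 3 in 3.

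**Figure D4:**
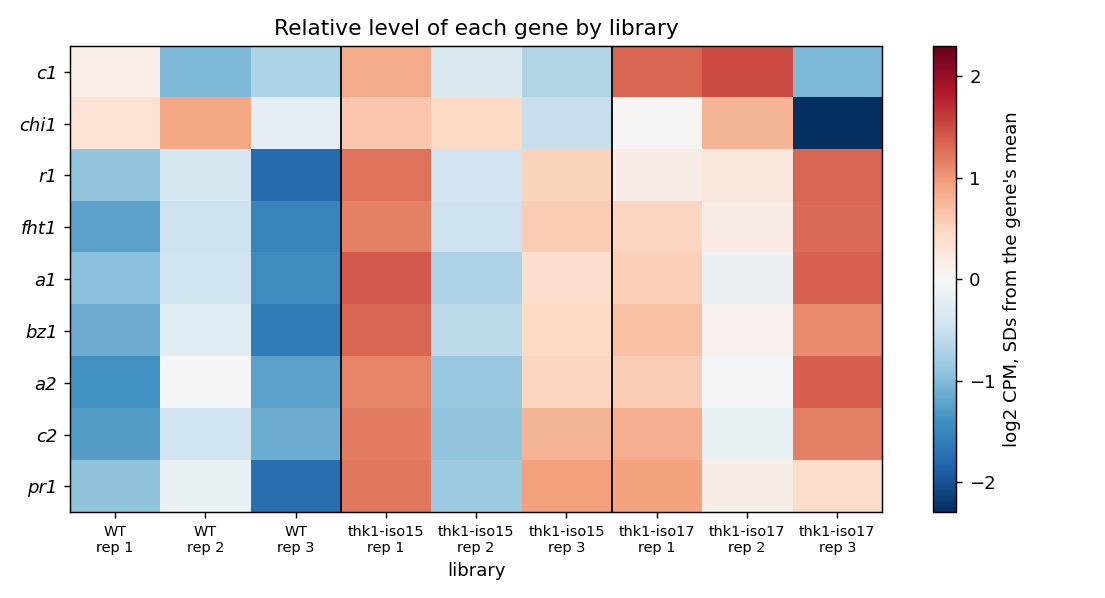
Level of the 9 members tested (rows) in each of 9 libraries (columns), as SDs of log2 CPM from the gene's own mean. Vertical lines part the genotypes. Each of the lower 7 rows is high in thk1-iso15 replicate 1 and low in WT replicates 1 and 3. In thk1-iso17 replicate 3 they are at their highest or second highest except pr1, at 0.43 SDs above its mean.

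Over the 9 libraries the 21 pairs among these 7 genes had a Pearson r of log2 CPM between 0.886 and 0.987, with a median of 0.965. The points share the difference between genotypes and the scaling of each library. When each library was taken as its deviation from its own genotype mean, r was between 0.763 and 0.976, with a median of 0.928. The nearest member to r1 was fht1, with an r of 0.981. Ranked by r with r1 over the 9 libraries among the 23528 other genes tested, fht1 was at place 2, bz1 at place 4, a1 at place 5, a2 at place 37, c2 at place 77 and pr1 at place 133. The median r with r1 over all these genes was 0.012. Ranked instead by deviations from the genotype means, fht1 was at place 4, a1 at 25, bz1 at 27, a2 at 79, c2 at 313 and pr1 at 473.

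Correlations of the MYB regulator c1 with these genes were low, though c1 spanned only 1.82-fold over the libraries. At 39 to 228 counts, its counting error can lower an r. Its r with the 7 genes lay between 0.117 and 0.369 over the 9 libraries, and between -0.32 and 0.12 in deviations from genotype means. Ranked by r with r1, c1 was at place 9064 and chi1 at place 17001. The member nearest to c1 was chi1, with an r of 0.463 over the libraries and 0.811 in the deviations. Ranked by r with c1 among the 23528 other genes, chi1 was at place 3896 over the libraries and 469 in the deviations. Both had their largest deviation in thk1-iso17 replicate 3, at -0.56 for c1 and -0.89 for chi1.

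**Figure D5:**
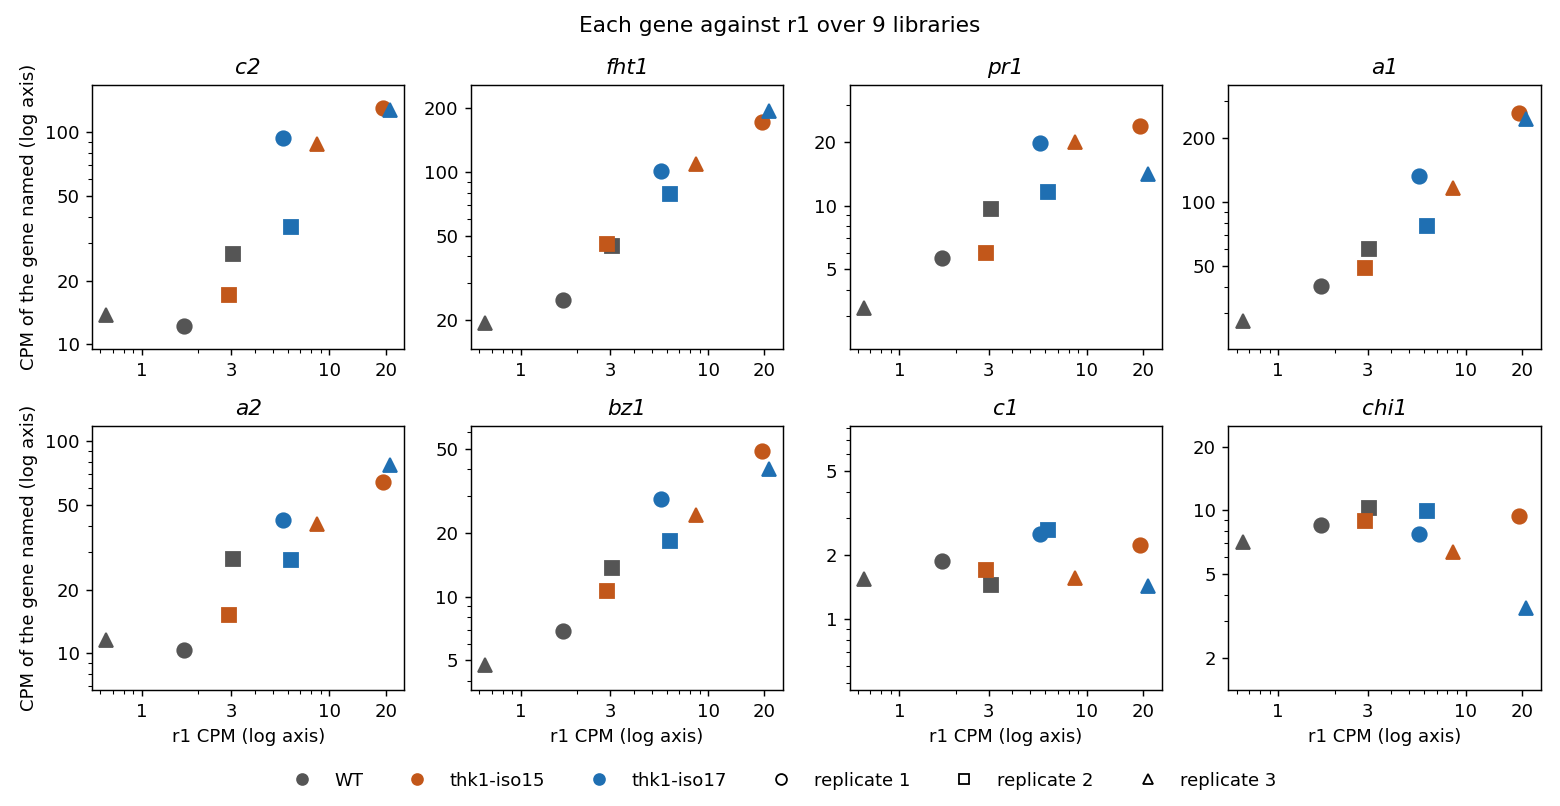
Level of 8 genes (vertical, CPM, log axis) against the level of r1 in the same library (horizontal, CPM, log axis), with colours for genotype and shapes for replicate. Over all 9 libraries c2, fht1, pr1, a1, a2 and bz1 are higher where r1 is higher. Within thk1-iso17 the order is not kept, as all 6 enzyme genes are higher in replicate 1 than in replicate 2 while r1 is slightly lower, and pr1 is highest in replicate 1.

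Ratios of counts within a library do not depend on the scaling between libraries. The ratio of r1 to c1 counts was 0.897, 2.12 and 0.416 for the WT replicates, 8.59, 1.70 and 5.49 for thk1-iso15, and 2.22, 2.37 and 14.6 for thk1-iso17. All mutant libraries but thk1-iso15 replicate 2 thus lay above the WT range. The ratio of c2 to chi1 counts, consecutive steps of the pathway, was 1.42, 2.60 and 1.95 for the WT replicates, 14.01, 1.93 and 13.8 for thk1-iso15, and 12.2, 3.59 and 36.7 for thk1-iso17. Across all libraries that ratio spanned 25.8-fold. The ratio of bz1 to a1 spanned 1.47-fold, from 0.161 to 0.236, and that of a2 to a1 spanned 1.903-fold. These ratios were chosen after the values were seen, and none was tested.

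Outside the 10 members, the gene nearest to the mean pattern of the 9 members was Zm00001d036238, with an r of 0.985 over the 9 libraries. Its means were 60.04 ± 13.2 CPM in WT, 85.4 ± 22.5 with thk1-iso15 and 93.4 ± 3.39 with thk1-iso17 (SD, n = 3 per genotype), and it passed in neither allele (edgeR adjusted p = 0.115 and 0.05997). The next was Zm00001d030090, with an r of 0.973, at 0.514 ± 0.166, 1.97 ± 1.53 and 2.26 ± 0.922 CPM. It passed in thk1-iso17 (log2 fold change 2.11, edgeR adjusted p = 0.0360) but had 0.0531 in thk1-iso15. An r above 0.9 was reached by 76 of the 23520 other genes. The members' own r with this mean pattern, which takes in c1 and chi1, ran from -0.147 to 0.981.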

How the data were processed

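The values are raw counts per gene in 9 endosperm libraries, deposited by the authors. TruSeq libraries were read as paired ends of 100 bases, per the labels' protocols. HTSeq 0.11.1, HISAT2 2.1.0, StringTie 1.3.6 and SAMtools 1.9 appear in the submitters' processing notes, with B73 RefGen_v4 as the build. Strand use, like the annotation and the counting settings, is not given in the sources used here, so reads of overlapping or antisense genes remain uncertain. The 5 summary lines of each file, 33.5% to 47.1% of its entries, were left out of library sizes and tests.

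The symbols of the 10 members came with their selection. The members and lists were chosen with earlier results of these data known. A RefSeq gene table of another build held 0 of the 10 identifiers, so further pathway genes and tissue markers, listed by symbol, were matched to no row. All 10 members were to be named, with the 2 other genes nearest to their mean pattern.

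The analysis used edgeR 4.0.16 under R 4.3.3, with filterByExpr, TMM factors and 1 quasi-likelihood fit of 3 groups, with Benjamini-Hochberg adjustment over 23529 genes and a threshold of 0.05. The SE is the log2 fold change divided by the root of F. Log2 CPM used a prior count of 0.5. The fit was tested on simulated data, and the outcome is not given here. Alternatives were RLE and upper quartile factors, TMM without the 100 most abundant genes, DESeq2 1.42.0, voom in limma 3.58.1, no filter, at least 1 CPM in 3 libraries, only the groups compared, a replicate block, c2 and whp1 summed, and each library left out.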

Additional observations from a re-analysis of the deposited data

How the results depend on the processing

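All 7 members with large fold changes had a positive log2 fold change against WT under every alternative run, and the threshold decided how many passed. With DESeq2, which also took in whp1, 5 of 10 members were called in thk1-iso15, 6 in thk1-iso17 and 6 for both alleles. DESeq2 called 2813, 2698 and 3454 of 33727 genes higher in the same order. With voom the members called were 1 of 9 in thk1-iso15, 1 in thk1-iso17 and 3 for both alleles. Genes called higher by voom were 1404, 1692 and 2062 of 23529. Without a filter on low counts, 6 of 10 members were called in thk1-iso15 and 7 in thk1-iso17. In that fit 2108 and 1985 of 33773 genes were called higher. Adding a replicate block gave 0 in thk1-iso15, 1 in thk1-iso17 and 1 for both alleles, and the gene that passed was fht1. With the block, all genes called were 3971, 3761 and 5373 in the same order, beside 3642, 3352 and 4943 without it. The cause was not tested. The replicate numbers were not treated as pairs, because the labels tie them to nothing shared and only 3 of 9 same-numbered pairs of libraries had a correlation of deviations over 0.1 (range -0.099 to 0.22). Pairs with different numbers ranged from -0.21 to 0.12. As a hint the other way, 6 of 9 libraries correlated best with their own number. With each library left out in turn, the members called ranged from 0 to 6 in thk1-iso15, from 0 to 7 in thk1-iso17 and from 0 to 7 for both alleles, and were 0 between the alleles. All genes called ranged from 1440 to 4386, from 1176 to 3946, from 2464 to 5876 and from 21 to 72 in the same order, beside 3642, 3352, 4943 and 26 with all libraries. Between the alleles DESeq2 called 197 genes, the unfiltered fit 75 and the fit of these 2 groups alone 17.

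Signs turned in small differences that did not pass. The chi1 log2 fold change ranged from -0.20 to 0.086 in thk1-iso15 and from -0.62 to 0.022 in thk1-iso17 as libraries were left out. Between the alleles the log2 difference of r1 ranged from -0.78 to 0.93, of c2 from -0.35 to 0.70, of chi1 from -0.55 to 0.10, of fht1 from -0.27 to 0.69, of pr1 from -0.53 to 0.22, of a1 from -0.44 to 0.88, of a2 from -0.18 to 0.81 and of bz1 from -0.32 to 0.74. By voom pr1 had 0.15 there.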
